A study of Mus musculus with 6 samples.

Results

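T-box genes encode transcription factors that share the T-box, a DNA-binding domain, and each is used in a particular set of embryonic tissues. Those described here are Tbx1, Tbx2, Tbx3, Tbx4, Tbx5, Tbx15, Tbx18 and Tbx20, chosen by their symbols in the GENCODE annotation of mm10. They are 8 of the 53801 genes listed in the count files, and all 8 had enough counts for a test, as did 17514 genes in all. RNA-seq of maxillary processes, the paired swellings of the embryonic face that form the upper jaw and most of the palate, was compared between 3 WT samples and 3 samples of Wnt1cre; Rosa26Dlx2/- embryos (Dlx2OE) to find genes that respond to excess Dlx2. All samples are labelled as C57BL/6 at E12.5. WT embryos are labelled as wild type. No samples are labelled with Wnt1cre alone, so effects of the driver and of the extra Dlx2 cannot be told apart. Dlx2OE embryos carried the Wnt1cre driver, which is active in the neural crest lineage, and 1 Rosa26 allele with a CAG-LSL-Dlx2-3xFlag cassette, from which Dlx2 is made once Cre has removed the stop sequence. By this design the extra Dlx2 is made in cells descended from the neural crest, while the dissected tissue also holds epithelium, vessels, muscle precursors and nerves. The labels name littermates as the RNA source, so a sample may pool embryos, and they do not say whether the samples of a genotype came from separate litters. The p-values measure the spread between these samples.

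T-box factors act as repressors or activators and often bind DNA as part of complexes with homeodomain, GATA or Groucho-type proteins. In the mouse head, Tbx1 is known for the pharyngeal arches and is deleted in DiGeorge syndrome, Tbx22 is mutated in X-linked cleft palate, and Tbx2, Tbx3, Tbx15 and Tbx18 are expressed in facial mesenchyme. By sequence, Tbx2, Tbx3, Tbx4 and Tbx5 make up the Tbx2 subfamily, and Tbx1, Tbx15, Tbx18, Tbx20 and Tbx22 belong to the Tbx1 subfamily.

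Library depth, as read pairs assigned to genes, ranged from 30332754 to 31308813 for WT and from 26155500 to 30570784 for Dlx2OE. Levels are CPM, counts made relative to the size of each library, with library sizes scaled by TMM, and 3 counts, or 0.0955 to 0.111 CPM, were taken as the smallest detectable level in a library. This floor covers counting error only. Dlx2 itself had 35.0 to 45.2 CPM in the WT samples and 119 to 131 CPM in the Dlx2OE samples, so the libraries followed their labels. Its log2 fold change was 1.60 (edgeR, adjusted p = 0.00241). Markers of cranial neural crest mesenchyme were abundant in every library. Over 10 genes they summed to 1876 to 2276 CPM in WT and 2694 to 2842 CPM in Dlx2OE. Of these, 3 (Twist1, Alx4 and Tfap2b) passed the test as higher, as did 2.99% of all genes tested. By mean CPM over all 6 samples, the most abundant marker of each list was Prrx1 for mesenchyme, Krt14 for epithelium, Actc1 for muscle precursors, Cdh5 for endothelium, Notch3 for mural cells, Nefm for neurons, Pax6 for lens and retina, Gsc for mandibular identity and Hbb-y for erythroid cells, and none of these 9 passed by edgeR. The sum of 9 neuronal markers ranged from 82.4 to 357 CPM in WT and was 201, 712 and 1619 CPM in Dlx2OE replicates 1 to 3. No neuronal marker passed the test by edgeR, 4 were higher at an unadjusted p under 0.05 and 2 by DESeq2. Over all genes tested, at least 3834 of 17514 had an unadjusted p under 0.05 by edgeR. DESeq2 called 1186 of them higher and 1428 lower. Counts of this kind further on are to be read beside these. The 7 markers of mandibular identity summed to 77.1 to 98.3 CPM in WT and 78.8 to 99.7 CPM in Dlx2OE, with none past the test by edgeR, by DESeq2 or at an unadjusted p under 0.05 (0 in each). The 6 erythroid markers summed to 3009 to 4142 CPM in WT and 1884 to 2435 CPM in Dlx2OE, and Hba-a1 and Alas2 fell. In Dlx2OE replicate 3, 15.4% of uniquely aligned read pairs lay in no annotated gene, against 5.34% to 8.21% in the other libraries. Results for the T-box genes are given with and without this library where they differ. In bulk tissue, fewer cells of a type cannot be told apart from less RNA per cell.

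Tbx5 had no counts in WT and met the count filter only through its Dlx2OE samples, so it is described on its own further on and is left out of the counts here. Of the 7 T-box genes detected in both genotypes, 4 passed the test (edgeR quasi-likelihood test, adjusted p under 0.05), where 6.45% of all genes tested did. Tbx2, Tbx15 and Tbx18 were higher in Dlx2OE, as were 2.99% of genes tested, and Tbx1 was lower, as were 3.46%. Tbx3, Tbx4 and Tbx20 did not pass. The median log2 fold change of the 7 was 0.87, against 0.0028 over all genes tested. A size beyond 1 on the log2 scale was reached by Tbx15 and Tbx18 upward and by Tbx1 downward, which 1.50% and 1.62% of genes tested reached (3.12% in either direction). Together with Tbx5 they summed to 256 to 299 CPM in the WT samples and to 483 to 497 CPM in the Dlx2OE samples. The Dlx2OE samples lay wholly above the WT samples for 5 of the 7 genes and wholly below them for Tbx1, a separation seen above in 16.7% and below in 17.3% of genes tested (34.1% in either direction). Without Dlx2OE replicate 3, the library with the most reads outside genes, Tbx2, Tbx15 and Tbx18 again passed as higher and Tbx1 did not pass. Tbx15 alone of the 7 passed without WT replicate 1 and again without WT replicate 2. Calls fell over all genes in these fits, from 524 higher and 606 lower in the main fit. They were 77 and 103 without WT replicate 1, and 39 and 40 without WT replicate 2. Gene by gene, the smallest p that exact two-sided permutation of 3 against 3 allows is 0.1, and the 6 of these 7 without overlap reached it.

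**Figure D1:**
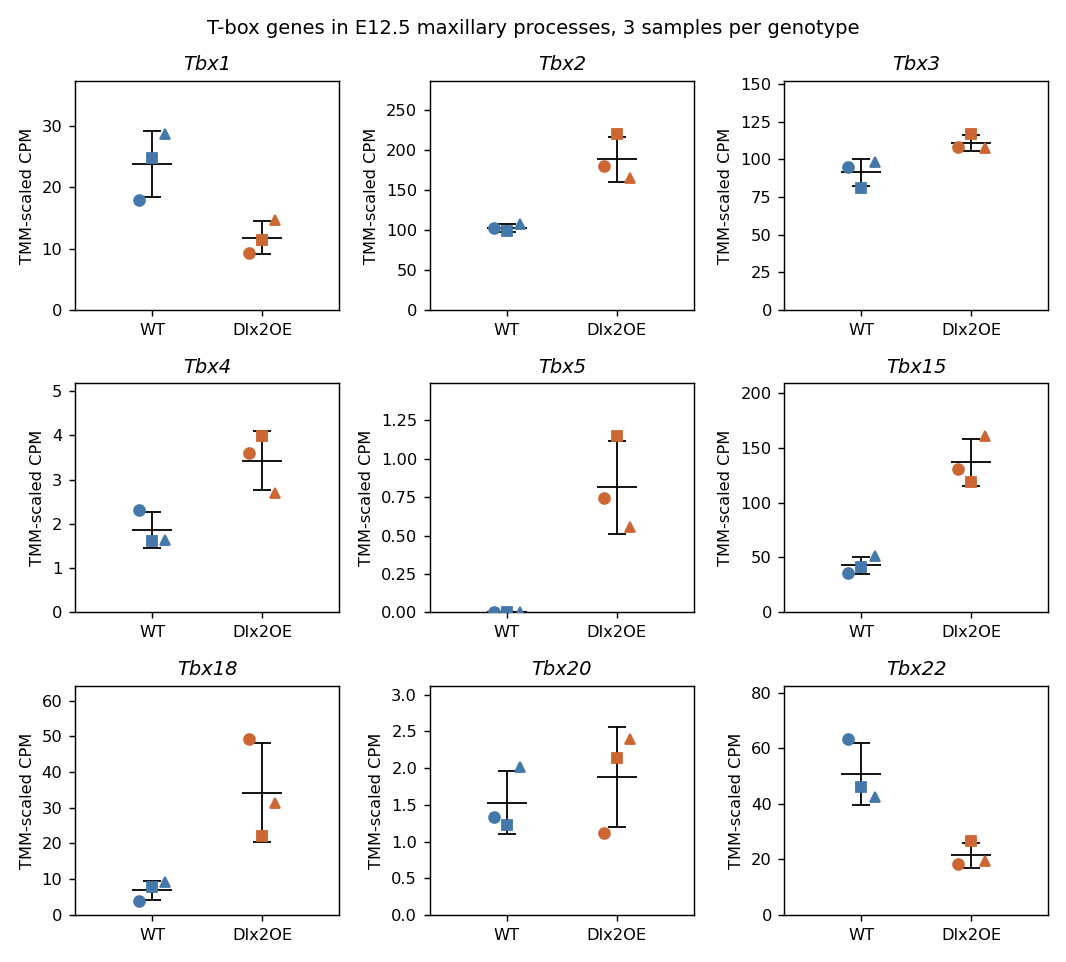
TMM-scaled CPM of the 8 T-box genes and Tbx22 in each sample, with WT in blue, Dlx2OE in orange and circles, squares and triangles for replicates 1, 2 and 3, horizontal lines for means, bars for SD (n = 3) and vertical axes that start at 0. Samples of the 2 genotypes overlap only for Tbx20, and Tbx5 is at 0 in the 3 WT samples.

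To compare genes with each other, levels were divided by exon length. In WT, Tbx2 was first with 28.4 ± 1.35 CPM per kb of exon (SD, n = 3). Tbx3 followed with 13.8 ± 1.38 and Tbx15 with 11.4 ± 2.09 CPM per kb, and the samples of these neighbours overlapped. Then came Tbx1 with 6.77 ± 1.55, Tbx18 with 1.45 ± 0.581, Tbx4 with 0.547 ± 0.118 and Tbx20 with 0.127 ± 0.0359 CPM per kb, each apart from its neighbours, and Tbx5 was at 0. In Dlx2OE, Tbx2 stayed first with 52.0 ± 7.88 CPM per kb, and Tbx15 came next with 36.4 ± 5.70, above every sample of Tbx3 at 16.7 ± 0.786. Tbx18 (7.26 ± 2.93) stood above Tbx1 (3.36 ± 0.763), the reverse of their order in WT. Tbx4 was at 1.01 ± 0.195 CPM per kb, and Tbx5 (0.174 ± 0.0648) and Tbx20 (0.157 ± 0.0566) overlapped at the lower end.

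When the levels per kb of the 8 genes and Tbx22 were added up within each sample, Tbx2 held 38.9% to 40.3% of the sum in WT and 38.0% to 48.8% in Dlx2OE. The share of Tbx15 went from 15.9% ± 2.18 in WT to 30.2% ± 5.13 in Dlx2OE (SD, n = 3 each), and that of Tbx18 from 2.02% ± 0.759 to 6.04% ± 2.56. Tbx22 held 12.8% ± 3.18 in WT and 3.18% ± 0.594 in Dlx2OE, and Tbx1 held 9.43% ± 1.89 and 2.77% ± 0.632. Tbx3 held 19.2% ± 1.25 and 13.8% ± 0.316, although its own level was not lower in Dlx2OE, since the shares add up to a fixed total.

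**Figure D2:**
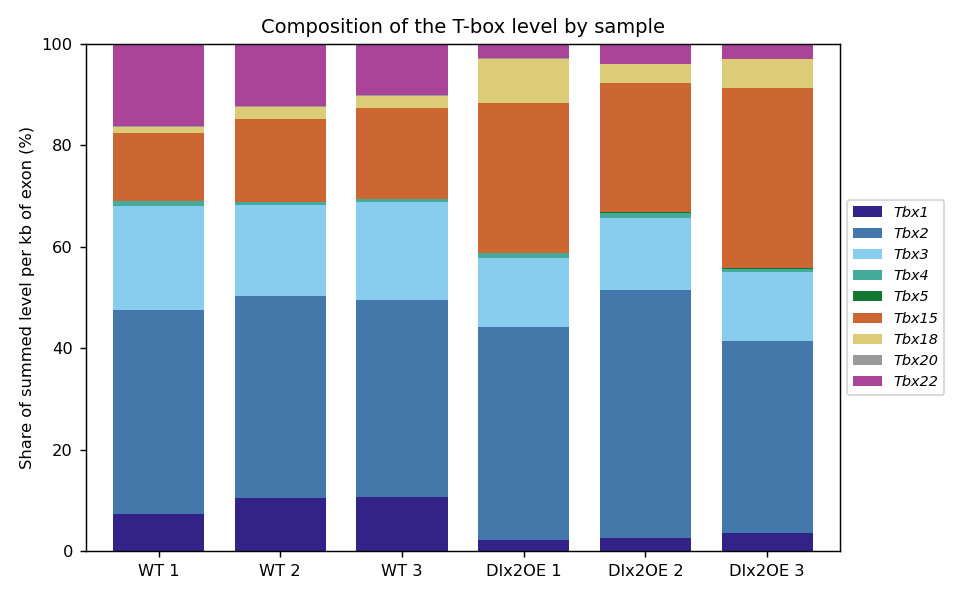
Share of each gene, in percent, of the summed level per kb of exon of the 8 T-box genes and Tbx22, as 1 stacked bar for each sample. Tbx15 widens from 13.5% to 17.8% in the WT samples to 25.4% to 35.6% in the Dlx2OE samples, while Tbx22 and Tbx1 narrow.

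Among the Tbx1 subfamily, Tbx15, which shapes the skeleton and the dorsal pattern of the coat, gave the smallest p of the 8 genes. Tbx15 (ENSMUSG00000027868) lies on the forward strand of chromosome 3 from 99240381 to 99354259. Its counts were 1042, 1255 and 1595 for WT replicates 1 to 3 against 3873, 3728 and 4339 for Dlx2OE replicates 1 to 3. Each Dlx2OE sample was far above the highest WT sample. Mean levels were 42.8 ± 7.84 CPM (WT) and 137 ± 21.4 CPM (Dlx2OE, both SD, n = 3), a 3.19-fold rise (log2 fold change 1.67, SE 0.166, edgeR adjusted p = 0.00507). It ranked 27 of 17514 genes by p. Tbx15 passed the test whichever sample was left out, with a log2 fold change between 1.54 and 1.81.

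Tbx18, which acts in somites, the ureter, the epicardium and the sinus node, rose the most among the T-box genes detected in both genotypes. Tbx18 (ENSMUSG00000032419) lies on the reverse strand of chromosome 9 from 87702800 to 87731260. Tbx18 was counted 111, 232 and 283 times in the libraries of WT replicates 1 to 3, against 1461, 696 and 848 times in Dlx2OE. The genotypes did not overlap, but Dlx2OE replicate 1 was well above the other two. Mean levels were 6.86 ± 2.74 CPM (WT) and 34.3 ± 13.8 CPM (Dlx2OE, both SD, n = 3), for a log2 fold change of 2.32 (SE 0.381, edgeR adjusted p = 0.0193). Over 970 bp, or 20.6% of its exon sequence, Tbx18 overlaps D030062O11Rik on the other strand, and since the strand setting of the counting is not known, reads there cannot be told apart. That gene was counted at only 1, 1 and 6 in WT and 11, 11 and 5 in Dlx2OE, too few for a test. Tbx18 lost the call without WT replicate 1 (log2 fold change 2.02, adjusted p = 0.0540) and without WT replicate 2 (2.40, adjusted p = 0.0903).

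Ratios of counts between T-box genes do not depend on library size, and 6 were computed. The ratio of Tbx15 to Tbx18 was 9.39, 5.41 and 5.64 in WT and 2.65, 5.36 and 5.12 in Dlx2OE. In Dlx2OE replicates 2 and 3 it lay just under the lowest WT value, and in replicate 1 it was much lower (exact two-sided permutation test, p = 0.1, the smallest possible). Tbx18 is also used as a marker of mural cells. The 9 mural markers summed to 361 to 439 CPM in WT and 339 to 442 CPM in Dlx2OE. Pdgfrb and Notch3 were the largest parts, with 137 and 150 CPM in WT and 149 and 174 CPM in Dlx2OE. The only marker past the test by edgeR, Rgs5, fell from 20.6 ± 4.07 to 8.94 ± 1.06 CPM (SD, n = 3 each, edgeR adjusted p = 0.0176). Of 8 mural markers tested, 5 were lower at an unadjusted p under 0.05 and 2 by DESeq2. Their median log2 fold change was -0.81, with 6 negative and 2 positive.

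Tbx1, which patterns the pharyngeal arches and their muscle core, moved the other way. Tbx1 (ENSMUSG00000009097) lies on the reverse strand of chromosome 16 from 18580979 to 18590671. Tbx1 was counted 525, 747 and 896 times in the libraries of WT replicates 1 to 3, against 275, 361 and 396 times in Dlx2OE. All 3 Dlx2OE samples were below the lowest WT sample. Mean levels were 23.8 ± 5.46 CPM (WT) and 11.8 ± 2.68 CPM (Dlx2OE, both SD, n = 3), 2.02-fold lower (log2 fold change -1.01, SE 0.226, edgeR adjusted p = 0.0416). This call was close to the threshold, and it held in 1 of the 6 fits with a sample left out, the one without Dlx2OE replicate 1. The log2 fold change in these fits ranged from -1.20 to -0.87. It was also lost with library size alone in place of TMM scaling (-0.95, adjusted p = 0.0609). The 9 muscle precursor markers summed to 163, 307 and 173 CPM in WT replicates 1 to 3, in which Tbx1 had 17.9, 24.8 and 28.7 CPM, and to 68.0, 129 and 191 CPM in Dlx2OE replicates 1 to 3, in which Tbx1 had 9.28, 11.5 and 14.6 CPM. The order of the samples was the same for both in Dlx2OE and not in WT. That order is not particular to muscle, since the neuronal marker sum followed it in Dlx2OE too (201, 712 and 1619 CPM). No muscle marker passed by edgeR (2 lower at an unadjusted p under 0.05, 1 by DESeq2), and 8 of 9 had a negative log2 fold change. The 12 epithelial markers summed to 838 to 1500 CPM in WT and to 2039, 649 and 669 CPM in Dlx2OE. Of these, Krt8 and Krt18 fell, 4 of 12 had a positive log2 fold change, and at an unadjusted p under 0.05 there were 1 higher and 3 lower. The 1 higher was Krt5, named here after its values were seen, at 71.3 ± 25.5 CPM for WT against 268 ± 233 for Dlx2OE (SD, n = 3 each, edgeR adjusted p = 0.0792). The 8 endothelial markers summed to 296 to 443 CPM in WT and 212 to 336 CPM in Dlx2OE, where Emcn fell. The part of these tissues in the Tbx1 difference was not tested.

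Tbx20, a factor of the heart and of cranial motor neurons, was among the lowest of the 8. Tbx20 (ENSMUSG00000031965) lies on the reverse strand of chromosome 9 from 24718138 to 24774303, and its counts were 39, 37 and 63 for WT against 33, 67 and 65 for Dlx2OE. The groups overlapped, at 1.53 ± 0.431 CPM for WT against 1.88 ± 0.679 for Dlx2OE (SD, n = 3 each), and the difference did not pass (log2 fold change 0.30, SE 0.361, edgeR adjusted p = 0.604). Dlx2OE replicate 1, the lowest sample at 1.11 CPM, also had the lowest neuronal marker sum of its group, whereas WT replicate 2, the lowest WT sample at 1.23 CPM, had the highest neuronal sum of the WT samples.

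The promoters of Tbx18, which rose, and Tbx1, which fell, are shown with that of Tbx4 so that they can be read next to these values. The 250 bases before the annotated start were taken from RefSeq on GRCm38.p6, which matched 4 of the 8 genes (Tbx1, Tbx4, Tbx18 and Tbx20) in 5 windows. They are written 5′ to 3′ on the strand of the gene, with a motif match in capitals. Tbx18 spans chr9:87731261-87731510 (reverse strand), the second window of Tbx1 spans chr16:18590672-18590921 (reverse strand) and Tbx4, a member of the Tbx2 subfamily, spans chr11:85896515-85896764 (forward strand).
Tbx18: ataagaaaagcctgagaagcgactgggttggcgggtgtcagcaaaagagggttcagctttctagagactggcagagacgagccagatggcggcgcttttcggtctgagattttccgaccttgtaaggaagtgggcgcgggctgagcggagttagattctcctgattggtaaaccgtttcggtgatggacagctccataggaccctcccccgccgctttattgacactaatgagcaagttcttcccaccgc
Tbx1: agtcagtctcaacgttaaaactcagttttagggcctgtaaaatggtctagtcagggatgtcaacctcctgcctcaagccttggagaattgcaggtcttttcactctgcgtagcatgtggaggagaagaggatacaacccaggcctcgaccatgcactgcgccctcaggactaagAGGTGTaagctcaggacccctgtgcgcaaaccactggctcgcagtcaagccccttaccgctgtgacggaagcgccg
Tbx4: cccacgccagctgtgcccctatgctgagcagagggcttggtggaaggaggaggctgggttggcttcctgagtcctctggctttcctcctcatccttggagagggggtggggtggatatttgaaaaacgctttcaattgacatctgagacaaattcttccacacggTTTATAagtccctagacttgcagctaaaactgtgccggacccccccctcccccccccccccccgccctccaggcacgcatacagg
Both strands were searched for the homeodomain core TAATT, the T-box core AGGTGT and the TATA box TATAAA, and no match overlapped another. The printed Tbx1 window holds AGGTGT 76 bases before the start, a hexamer present in 11.8% of the 32851 windows of this length. The Tbx4 window, which begins downstream of the gene start in GENCODE, holds TATAAA on the reverse strand 85 bases before its start, as 12.4% of windows hold it. The first Tbx1 window (chr16:18588900-18589149, reverse strand), not printed, has a GC content of 67.2% and holds none of the 3 motifs. The Tbx20 window, not printed, holds TAATT on the strand opposite the gene 12 bases before the start, a core present in 25% of windows. Tbx18 matched none of these letters. GC content was 54% for Tbx18, 54.4% for this Tbx1 window and 58.4% for Tbx4, against a median of 52.4% over all windows, and the number of CpG dinucleotides was 15, 10 and 6, against a median of 6. A match of this kind is a description of the letters and not a binding site.

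Among the Tbx2 subfamily, Tbx2 and Tbx3 are repressors known for silencing cell cycle inhibitors, and they had the highest mean levels per kb in WT. Tbx2 (ENSMUSG00000000093) lies on the forward strand of chromosome 11 from 85832551 to 85841948. Tbx2 was counted 3004, 2965 and 3373 times in the libraries of WT replicates 1 to 3, against 5326, 6923 and 4478 times in Dlx2OE. The WT samples lay close together, and every Dlx2OE sample was above them. Mean levels were 103 ± 4.91 CPM (WT) and 189 ± 28.6 CPM (Dlx2OE, both SD, n = 3), a 1.83-fold rise (log2 fold change 0.87, SE 0.125, edgeR adjusted p = 0.0134). The call was lost without WT replicate 1 and without WT replicate 2, at log2 fold changes of 0.86 and 0.83, and when gene length and GC content were corrected for (0.76).

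Tbx3 (ENSMUSG00000018604) lies on the forward strand of chromosome 5 from 119670669 to 119684724. Tbx3 was counted 2785, 2436 and 3051 times in the libraries of WT replicates 1 to 3, against 3199, 3669 and 2916 times in Dlx2OE. On the CPM scale the groups were narrowly apart, from 80.8 to 97.9 in WT and from 108 to 117 in Dlx2OE. The log2 fold change of 0.28 (SE 0.104) did not pass the test (edgeR adjusted p = 0.127) in this fit or in any of the alternatives. The ratio of Tbx2 to Tbx3 counts was 1.08, 1.22 and 1.11 in WT and 1.66, 1.89 and 1.54 in Dlx2OE. All Dlx2OE ratios were above the WT ratios, a 1.49-fold difference between these paralogs within the same libraries (exact two-sided permutation test, p = 0.1, the smallest possible). Tbx3os1, an antisense gene that overlaps Tbx3 over 115 bp of exon, was counted 521, 576 and 345 times for WT against 626, 948 and 584 times for Dlx2OE (log2 fold change 0.60, edgeR adjusted p = 0.137).

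Tbx4 and Tbx5 are the hindlimb and forelimb members, with Tbx5 also active in the heart and the dorsal retina. Tbx4 (ENSMUSG00000000094) lies on the forward strand of chromosome 11 from 85886422 to 85916097, 44473 bp beyond the end of Tbx2. Tbx4 was counted 68, 49 and 51 times in the libraries of WT replicates 1 to 3, against 107, 125 and 73 times in Dlx2OE. The samples did not overlap, yet levels of 1.86 ± 0.400 CPM for WT and 3.43 ± 0.662 CPM for Dlx2OE (SD, n = 3 each) did not differ past the threshold (log2 fold change 0.88, SE 0.269, edgeR adjusted p = 0.0824). The log2 fold changes of these linked genes were 0.87 for Tbx2 and 0.88 for Tbx4. The ratio of Tbx2 to Tbx4 counts was 44.2, 60.5 and 66.1 in WT and 49.8, 55.4 and 61.3 in Dlx2OE, with overlapping ranges (exact two-sided permutation test, p = 1).

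Tbx5 (ENSMUSG00000018263) lies on the forward strand of chromosome 5 from 119832668 to 119885219, 147943 bp beyond the end of Tbx3. It had no counts in any WT sample and 22, 36 and 15 counts in Dlx2OE replicates 1 to 3. With 0 counts a WT library still allows up to 0.0962 to 0.103 CPM. The Dlx2OE level of 0.814 ± 0.303 CPM (SD, n = 3) was at least 8.19-fold higher than this floor of 3 counts per library. The edgeR fit gave an adjusted p of 0.0150, which is a description only, since the gene entered the test through the Dlx2OE samples. With DESeq2 it had no adjusted p, and with at least 10 counts required in every sample it was not tested. The level remained low beside that of its neighbour Tbx3, at 0.174 against 16.7 CPM per kb of exon in Dlx2OE. By edgeR the adjusted p was 0.0663 without WT replicate 2 and 0.0524 without Dlx2OE replicate 2. The 11 markers of lens and retina, tissues next to the dissected region, summed to 3.21, 11.6 and 8.79 CPM in WT and 13.6, 8.79 and 9.56 CPM in Dlx2OE. Among them Pmel, a pigment cell gene, rose, 4 were under 3 counts in every sample, and the retinal gene Vax2 was at 0 throughout. The part of these tissues in the Tbx5 difference was not tested.

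**Figure D3:**
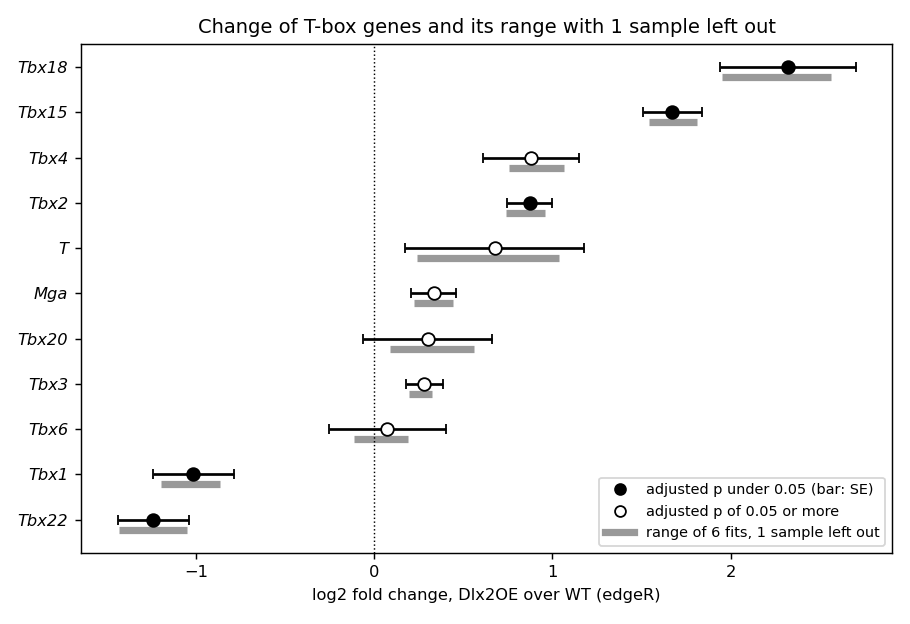
Log2 fold change of Dlx2OE over WT from edgeR for the T-box genes tested (Tbx5, with no counts in WT, is not drawn). Black bars are SE, and filled points have an adjusted p under 0.05. Grey bars give the range over 6 fits with 1 sample left out. Tbx18 (2.32) and Tbx15 (1.67) lie farthest to the right, Tbx1 (-1.01) and Tbx22 (-1.24) lie to the left, and Tbx6 alone crosses 0 when a sample is left out.

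Of 10 symbols listed for other T-box genes, 9 were in the files and 4 could be tested. Of these 4, 1 passed, where 6.45% of all genes tested did. Tbx22 (chromosome X, 107667964 to 107688978), the cleft palate gene, was counted 1856, 1389 and 1324 times for WT against 544, 839 and 521 times for Dlx2OE. Every Dlx2OE sample was below every WT sample. The level fell from 50.7 ± 11.2 to 21.4 ± 4.59 CPM (SD, n = 3 each, log2 fold change -1.24, edgeR adjusted p = 0.0185), and this call was lost without WT replicate 1, WT replicate 2 or Dlx2OE replicate 3. The ratio of Tbx15 to Tbx22 counts was 0.561, 0.904 and 1.20 in WT and 7.12, 4.44 and 8.33 in Dlx2OE, with a wide gap between genotypes. The ratio of Tbx18 to Tbx22 was 0.0598 to 0.214 in WT and 0.830 to 2.69 in Dlx2OE, again without overlap (exact two-sided permutation test, p = 0.1 for both ratios). The ratio of Tbx1 to Tbx22, which both fell, was 0.283 to 0.677 in WT and 0.430 to 0.760 in Dlx2OE and overlapped (exact two-sided permutation test, p = 0.7).

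Mga, a large protein with both a T-box and a basic helix-loop-helix domain, stood at 160 ± 24.3 CPM for WT against 202 ± 7.08 for Dlx2OE (SD, n = 3 each, edgeR adjusted p = 0.131). T, the mesoderm factor brachyury, and Tbx6, a somite factor, were each below 1.5 CPM in every sample and did not pass, with log2 fold changes of 0.68 and 0.07. Tbx21 and Tbr1, factors of lymphocytes and of the cortex, had at most 4 and 8 counts in a sample and were not tested.

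Among 27 listed cofactors and antagonists of T-box proteins, 20 were tested and 1 passed, where 6.45% of all genes tested did. Their median log2 fold change was -0.04. Tle3, a Groucho corepressor of the kind that Tbx15 and Tbx18 bind, rose from 166 ± 11.2 to 249 ± 24.1 CPM (SD, n = 3 each, log2 fold change 0.58, edgeR adjusted p = 0.0298). This call held in 2 of the 6 fits with a sample left out, those without WT replicate 3 or Dlx2OE replicate 1, and it was lost when gene length and GC content were corrected for (0.30, adjusted p = 0.195). By mean CPM over all 6 samples, the most abundant of the list were the histone deacetylase Hdac2, with 467 ± 38.3 CPM in WT and 399 ± 22.7 in Dlx2OE, and the nuclear corepressor Ncor1, with 225 ± 22.7 and 291 ± 3.63 CPM. Neither passed (adjusted p = 0.228 and 0.0743). Ripply3, an antagonist of Tbx1, stood at 3.28 ± 0.200 CPM for WT against 2.31 ± 0.611 for Dlx2OE (edgeR adjusted p = 0.238), and it is named here after its values were seen.

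Of 28 genes reported downstream of T-box factors in other tissues, 24 were tested. Of these 24, 3 passed as higher and 1 as lower, where 2.99% and 3.46% of all genes tested did. Their median log2 fold change was -0.13. Wnt5a, a Wnt ligand of the outgrowing face, rose from 85.0 ± 6.19 to 254 ± 85.6 CPM (SD, n = 3 each, log2 fold change 1.58, edgeR adjusted p = 0.0125). Smad7, an inhibitor of TGF-beta and BMP signalling, rose from 25.1 ± 0.606 to 40.4 ± 4.64 CPM (adjusted p = 0.0203). Hcn4, the pacemaker channel, rose from 4.18 ± 0.595 to 12.8 ± 6.35 CPM (adjusted p = 0.0372), and its highest sample, at 19.9 CPM, was Dlx2OE replicate 3, the library with the highest neuronal sum. Cyp26a1, which breaks down retinoic acid, fell from 18.2 ± 2.25 to 9.54 ± 2.62 CPM (adjusted p = 0.0496). Cyp26b1 and Cyp26c1, genes of the same list, are named here after their values were seen, and neither passed. Cyp26b1 stood at 59.8 CPM for WT against 133 for Dlx2OE, without overlap (log2 fold change 1.15, edgeR adjusted p = 0.0515). The log2 fold change of Cyp26c1 was -0.62, with overlapping samples (edgeR adjusted p = 0.192). When samples were removed singly, Wnt5a passed in 4 of 6 fits, Smad7 in 3, Cyp26a1 in 2 and Hcn4 in 1, and none of these passed without WT replicate 1 or WT replicate 2. The length and GC correction also ended the calls of Smad7 (adjusted p = 0.0623) and Cyp26a1 (adjusted p = 0.0923), and that of Cyp26a1 was lost with library size alone too (adjusted p = 0.0556) and with RLE factors in place of TMM (adjusted p = 0.0506).

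All 24 signals and factors reported to act on T-box genes were tested. As higher 1 passed and as lower 3, where 2.99% and 3.46% of all genes tested did. Their median log2 fold change was -0.23. Lef1, a nuclear effector of Wnt signalling, rose from 14.0 ± 0.721 to 131 ± 28.2 CPM (SD, n = 3 each, edgeR adjusted p = 0.000493). Shh, the hedgehog ligand of the oral epithelium, fell from 16.8 ± 1.98 to 6.79 ± 1.97 CPM (adjusted p = 0.0228). The forkhead genes Foxf1 and Foxf2, which respond to hedgehog signals, fell by 1.17 and 1.57 on the log2 scale (adjusted p = 0.0101 and 0.0454). Ptch1 and Gli1, hedgehog pathway genes of the same list, are named here after their values were seen. Their log2 fold changes were -0.14 and 0.14, with overlapping samples, and neither passed (edgeR adjusted p = 0.564 and 0.470). Over the 6 fits with a sample removed, Lef1 passed in all 6, Foxf1 in 5 and Shh and Foxf2 in 2 each, and Lef1 alone passed without WT replicate 2. Foxf2 lost its call with library size alone (adjusted p = 0.0583). Fgf8 stands in both of these lists, and it did not pass (adjusted p = 0.228).

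Genes around the T-box genes were compared in the same fit, since Tbx2 lies beside Tbx4 and Tbx3 beside Tbx5. Within 500 kb of the start of a T-box gene, 38 other genes were tested, with a median log2 fold change of 0.11. Of these, 2 passed, where 6.45% of all genes tested did. Gm10180, a processed pseudogene near Tbx20, rose from 0.606 to 2.06 CPM (edgeR adjusted p = 0.0148). Hsd3b6, an enzyme of steroid synthesis about 426 kb from Tbx15, fell from 19.1 to 8.74 CPM (adjusted p = 0.0255), the opposite direction to Tbx15. Both calls were lost without WT replicate 1, WT replicate 2 or Dlx2OE replicate 2, and that of Hsd3b6 also without Dlx2OE replicate 3. None of the 18 genes tested around Tbx1, in the segment whose human counterpart is deleted in DiGeorge syndrome, passed by edgeR, and their median log2 fold change was 0.06. At an unadjusted p under 0.05 there were 4 of these 18, where at least 3834 of 17514 genes tested were, and DESeq2 called 1. None of the 5 genes tested around Tbx2 passed by edgeR, 3 were higher at an unadjusted p under 0.05 and DESeq2 called 2, and all 5 are named here after their values were seen. For 2610027K06Rik, which starts 0.328 kb away on the other strand, Brip1 and Ints2 the log2 fold changes were 0.67, 0.52 and 0.39, with Dlx2OE samples above WT samples and adjusted p of 0.148, 0.0515 and 0.0898. For Bcas3 and Brip1os they were 0.12 and 0.10, with overlapping samples and adjusted p of 0.477 and 0.528. Gm43120, an antisense gene inside Tbx15, was counted 3, 3 and 6 times for WT against 8, 23 and 38 times for Dlx2OE and was not tested.

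**Figure D4:**
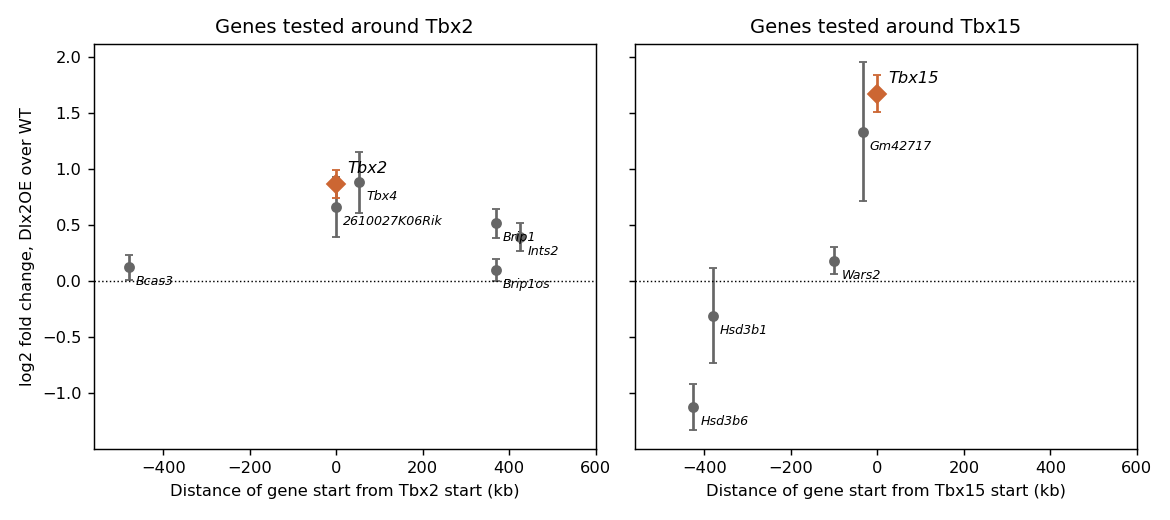
Log2 fold change of Dlx2OE over WT with SE for each gene tested within 500 kb of Tbx2 (left) and of Tbx15 (right), against the distance of its start from the start of that T-box gene in kb. Orange diamonds are Tbx2 (0.87) and Tbx15 (1.67), and the lowest point on the right is Hsd3b6 (-1.13).

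To see which genes followed the T-box genes from sample to sample, log2 CPM was correlated over the 6 samples after the mean of each genotype had been subtracted. The closest genes were Dlg4 for Tbx1 (r = 0.997), Fam204a for Tbx2 (0.998), Dcaf5 for Tbx15 (0.999) and Rps6ka1 for Tbx18 (0.999). Tbx5 is not named here, since with no counts in WT its pattern rests on the 3 Dlx2OE samples alone. Genes that did not pass the test had closest genes as near, with r = 0.9998 for Tbx3 and 0.997 for Tbx20. The best of so many genes over 6 samples reaches such an r for any gene, so it is no sign of a link. The points are the same 6 libraries for every gene, and no p is given. With the genotype means kept, at most 1 of the 3 closest genes of each of the 8 genes was the same.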

How the data were processed

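RNA was sequenced from maxillary processes of 3 WT and 3 Dlx2OE samples at E12.5, 1 file per sample, with genotype and replicate number taken from the labels. Per the submitters' processing notes, the authors used FastQC, STAR 2.7.3a, HTSeq 0.12.4 and the build mm10, and they deposited the raw count of read pairs per gene. The annotation release and the strand setting are not given in the sources used here. The 5 summary lines of each file were used only to describe the libraries. Symbols and positions are those of GENCODE M21 on GRCm38. It lists 53706 of the 53801 genes by identifier, and the remaining 95 were tested under their identifiers alone.

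Genotypes were compared in R 4.3.3 by edgeR 4.0.16 (filterByExpr with a minimum count of 10, TMM scaling, quasi-likelihood F test on genotype, Benjamini-Hochberg adjustment over 17514 genes). A gene passed at an adjusted p under 0.05. Levels are CPM on TMM-scaled library sizes, with SD over 3 samples, and log2 CPM used a prior count of 2. Log2 fold changes are those of the edgeR fit, which did not use that prior count. DESeq2 1.42.0 and other settings were alternatives. Total counts per sample ranged from 26155500 to 31308813. The scripts were tested on simulated data, and figures were drawn with matplotlib 3.10.9.

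The T-box genes and all lists were chosen with earlier results of these data known, and the motif letters were chosen after the promoter windows had been read. Named from each list were genes past the test (up to 6 by p), or the 2 most abundant (mean CPM over all 6 samples) where fewer than 2 passed, every other T-box gene with 3 counts in a sample, neighbours past the test and antisense genes that overlap a T-box gene. From each marker list the most abundant gene and those past the test (up to 4) were named. For T-box genes past the test except Tbx5, so was the gene closest over samples among those with mean log2 CPM of at least 1. The alternatives for neighbouring genes were added after the data were seen. Replicates of a genotype differed by more than sampling noise in all 6 pairs.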

Additional observations from a re-analysis of the deposited data

Results flagged for a closer look

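Read pairs that aligned uniquely but lay in no annotated gene were outside the comparison of genes, and they made up a larger share in each Dlx2OE library than in any WT library, where the highest share was 5.79%. The share was 6.03% in Dlx2OE replicate 1, 8.21% in Dlx2OE replicate 2 and 15.4% in Dlx2OE replicate 3.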

How the results depend on the processing

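Counts of the 8 T-box genes here include Tbx5, whose calls are a description only, since it entered the test through the Dlx2OE samples. Tbx15 passed in all 15 alternative fits, Tbx3, Tbx4 and Tbx20 passed in none, and every T-box gene of the 8 kept its direction. With DESeq2, 1186 genes passed as higher and 1428 as lower, against 524 and 606 by edgeR, and 3 of the 8 were higher and 1 lower, Tbx5 having no adjusted p there. DESeq2 called 2 cofactors higher, 6 downstream genes higher and 2 lower, 7 signals and factors lower, and 4 neighbouring genes higher and 2 lower. With library size alone, 0 of the 8 were lower (Tbx1 -0.95 on the log2 scale, adjusted p = 0.0609; edgeR counted 7 of the 8 at an unadjusted p under 0.05), 2 neighbours were higher, and 53.6% of all calls were higher against 46.4%. With no filter on low counts, 865 genes were higher and 1179 lower, and 2 neighbours were lower. With at least 10 counts in every sample, Tbx5 was not tested and 2 neighbours were higher. When gene length and GC content were corrected for, 322 genes were higher and Tbx2 lost its call (0.76), as did Tle3, Smad7, Cyp26a1 and the markers Alx4, Tfap2b and Hba-a1. The cause of these differences was not tested.

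Whether the replicate numbers pair the samples is not known. Deviations of same-numbered samples correlated at -0.07, -0.21 and 0.07, and those of differently numbered samples at -0.20 to 0.34. With 3 samples per genotype these values cannot decide it. With the replicate block, 407 genes were higher and 554 lower, and 6 signals and factors were lower. Tbx2, Tbx15 and Tbx18 passed again as higher and Tbx1 as lower. With the block and the length and GC correction together, 205 genes were higher and 372 lower, Tbx2 was at 0.73 without a call, and 35.5% of all calls were higher.

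Among the T-box genes other than Tbx5, Tbx15 passed whichever sample was left out. Tbx2 and Tbx18 lost their calls without WT replicate 1 and without WT replicate 2, and kept them in the other fits. Tbx1 passed only without Dlx2OE replicate 1. Over all genes, 39 to 975 were higher and 40 to 1298 lower, with the fewest of both without WT replicate 2. The log2 fold change ranged from -1.20 to -0.87 for Tbx1, 0.74 to 0.96 for Tbx2 and 1.95 to 2.56 for Tbx18. The fitted value of Tbx5 ranged from 7.27 to 7.85, which is no measure of its size because WT had no counts. The ranges were 0 to 1 lower for other T-box genes, 0 to 3 higher for cofactors, 0 to 5 higher and 0 to 4 lower for downstream genes, 0 to 5 lower for signals and factors, and 0 to 1 higher and 0 to 2 lower for neighbours. Tbx6 ranged from -0.11 to 0.19 and changed sign without WT replicate 2 (-0.04) and without Dlx2OE replicate 3 (-0.11).

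With 3 samples per genotype and no counts in WT, the size of the Tbx5 difference is known only as a bound. Tbx4, Tbx5, Tbx20, T and Tbx6 rest on 125 counts or fewer in any library.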
